A study of Mus musculus with 64 samples.

Results

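Rosiglitazone-treated obese fat was compared with lean fat in the inguinal depot (iWAT, a subcutaneous white fat) of C57BL/6J mice, called B6 in the labels. The tested libraries were the 4 titled HFD rosi, from B6 mice on a high-fat diet (HFD) given rosiglitazone (rosi). They were set against the 4 titled LFD control, from B6 mice on a low-fat diet (LFD) without the drug, which makes 8 of the 64 libraries of the series. Another 4 libraries, B6 iWAT on HFD without the drug (HFD control), are given beside the comparison, because diet and drug both differ between HFD rosi and LFD control and their effects cannot be told apart in that contrast alone. All 12 libraries were total RNA from whole tissue, depleted of ribosomal RNA, and came from the same run and lane. No allele or transgene is named for these groups. The dose, the length of the treatment and of the diet, and the age and sex of the mice were not given in the sources used here. Nor do the labels say that the libraries of a group came from separate mice, so the p-values below measure only the spread between these libraries.

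Rosiglitazone is a thiazolidinedione that binds and activates PPAR gamma, the nuclear receptor that drives fat cell formation and lipid storage. In rodents, thiazolidinediones are known to raise mitochondrial and lipid-handling genes in white fat, and can give subcutaneous fat cells brown-like (beige) features, the best known marker of which is Ucp1, the mitochondrial uncoupling protein of heat-producing fat. High-fat feeding enlarges fat cells, raises leptin and brings in macrophages. The comparison asks which of these differences from lean fat were present in obese fat that had received the drug.

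The libraries held 5353293 to 9551251 counts in genes in HFD rosi, 5678001 to 7694060 in HFD control and 4926807 to 8844543 in LFD control. Levels below are CPM, counts of a gene scaled to a common library size with TMM factors, and differences are log2 fold changes of HFD rosi over LFD control ± SE unless another contrast is named. A gene is said to rise, fall or be called where its adjusted p in edgeR's quasi-likelihood test (Benjamini-Hochberg over 13039 genes) was under 0.05. The tissue carried its fat cell markers in all groups: Adipoq, the hormone adiponectin, ran from 3174 to 3793 CPM in HFD rosi, from 2686 to 4212 in HFD control and from 2841 to 4103 in LFD control. Wt1, a marker of visceral rather than subcutaneous fat, reached at most 0.117 CPM.

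Skeletal muscle RNA set the LFD control libraries apart before any gene of fat was considered. Summed over 94 genes of the contractile apparatus, muscle genes made up 0.0310%, 0.0363%, 0.0341% and 0.136% of gene counts in HFD rosi replicates 1 to 4, and 10.6%, 1.05%, 3.30% and 4.77% in LFD control replicates 1 to 4. Every LFD control library was above every HFD rosi library, and HFD control, at 0.0371% to 0.0621%, lay with HFD rosi. The mean difference in share was -6.25 on the log2 scale. It was -7.80 over 5 abundant muscle genes and -1.55 when the muscle metabolic list, some of whose genes are abundant in HFD rosi as well, was added to the sum. The muscle RNA of these libraries was known when they were chosen for comparison, so these differences are a description and carry no test. Acta1, the skeletal muscle actin, showed the same spread, with 18.0, 11.3, 22.4 and 104 CPM in HFD rosi and 4628, 464, 1707 and 1871 CPM in LFD control. Among HFD rosi libraries the muscle share of replicate 4 was higher than that of the other 3.

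**Figure D1:**
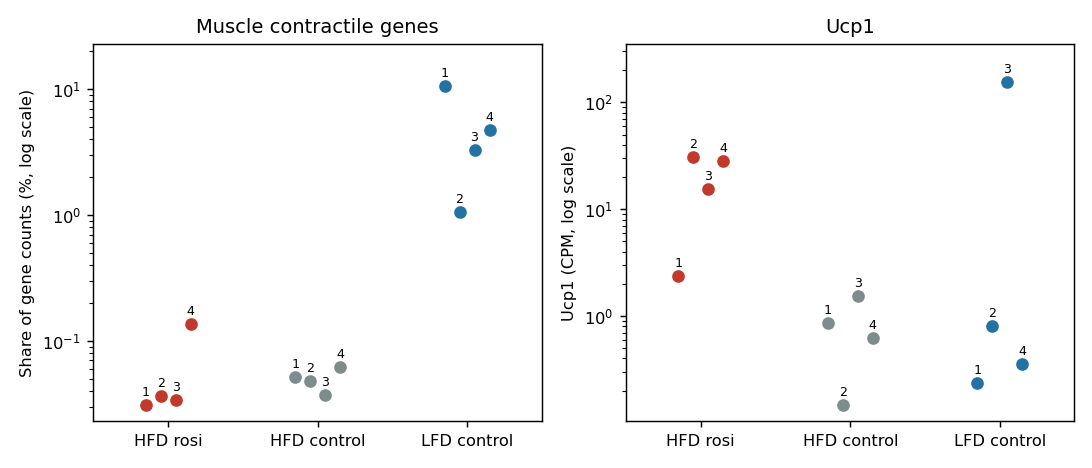
Left, share of gene counts in 94 muscle contractile genes (%, log scale), and right, Ucp1 (CPM, log scale), each point being 1 library labelled with its replicate number, for HFD rosi, HFD control and LFD control. The muscle share was at least 1.05% in all 4 LFD control libraries and at most 0.136% in the other 8, while Ucp1 was at 156 CPM in LFD control replicate 3 alone.

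Muscle genes were therefore kept apart. Of 122 tested genes on the muscle lists, 104 fell and 4 rose, with a median log2 fold change of -5.20. A further 176 genes on no muscle list also followed the muscle share among the 4 LFD control libraries (a slope of at least 0.5 and a correlation of at least 0.9 on log scales, used only to sort genes), and 124 of these fell and 5 rose. Of the 10 largest falls that the naming rule picked, 9 were genes of this kind, among them Ano5, Cnksr1, Myo18b and Hhatl. Ano5, a muscle membrane repair protein, was at 0, 0, 0 and 1.25 CPM in HFD rosi and at 103, 13.6, 41.3 and 52.2 CPM in LFD control. Of the lists themselves, Phkg1, the muscle catalytic subunit of phosphorylase kinase, had the lowest adjusted p (-4.63 ± 0.43), followed by Tpm2, a tropomyosin, and Klhl41, a sarcomere protein.

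**Figure D2:**
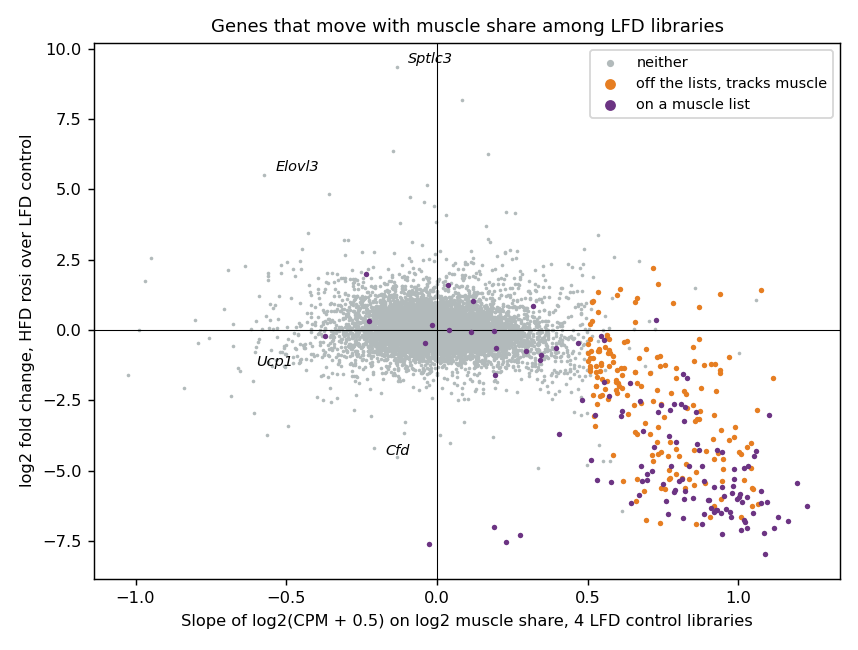
Each point is 1 gene: x axis, slope of log2(CPM + 0.5) on the log2 muscle share over the 4 LFD control libraries; y axis, log2 fold change of HFD rosi over LFD control. Genes on a muscle list (purple) and other genes that follow the muscle share (orange) gather at the lower right, away from Sptlc3, Elovl3, Cfd and Ucp1.

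Over all genes, 4381 of 13039 were called (33.6%), of which 2330 were higher (17.9%) and 2051 lower (15.7%) in HFD rosi. The median log2 fold change of all genes tested was -0.02. Among the 12741 genes that were neither on a muscle list nor followed the muscle share, 2321 rose (18.2%) and 1823 fell (14.3%). The sorting took out muscle genes and genes that increase with the muscle share, which was high only in LFD control. That it took mainly genes that fell was therefore built in. Genes that decrease as the muscle share increases were not set apart. The differences were large for a part of them: 545 called genes were higher and 631 lower by more than 1 log2 unit, and 404 of those 631 were outside both muscle classes. Against the same lean libraries, HFD control differed in 22.1% of 13309 genes, with 11.2% higher and 10.9% lower. HFD rosi differed from HFD control in 12.5%, with 7.82% higher and 4.71% lower. These contrasts share libraries and are given only side by side. With the log2 muscle level of each of the 12 libraries added to the model, 158 genes (1.19%) were called, 0.721% of genes higher and 0.466% lower. The muscle level nearly separates LFD control from the other groups, so muscle RNA and the other differences of LFD control cannot be told apart in that model.

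Of 27 tested genes of the heat-producing programme, 10 rose (37.0%, against 17.9% of all genes) and 4 fell (14.8%, near the 15.7% of all genes), with a median of -0.12 against -0.02 for all genes. Of the 22 on no muscle list, 8 rose and 4 fell. Without LFD control replicates 1 and 4, 8 genes of the whole list were called higher and 3 lower. The fit with the muscle level called 0 higher and 1 lower, with a median of 0.066. Ucp1 itself was at 2.36, 31.0, 15.6 and 28.5 CPM in HFD rosi, at 0.863, 0.147, 1.52 and 0.620 CPM in HFD control, and at 0.237, 0.813, 156 and 0.352 CPM in LFD control. All 4 HFD rosi libraries were above 3 of the 4 LFD control libraries, and LFD control replicate 3 was above all of them. The groups overlapped and the test did not call Ucp1 (-1.03 ± 1.43, adjusted p = 0.604). Without LFD control replicate 3 the value was 5.46, with an adjusted p of 0.00495.

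Other brown fat markers showed the same library. Dio2, the deiodinase that activates thyroid hormone, was at 1.09, 5.45, 1.5 and 3.74 CPM in HFD rosi and at 0.356, 0.610, 27.4 and 0.352 CPM in LFD control, and Cidea, a lipid droplet protein of brown fat, reached 144 CPM in LFD control replicate 3 against 8.19 to 43.9 in the other 3. Neither was called, and nor were Cox7a1 (-0.21 ± 0.42) and Cox8b (-0.06 ± 0.37), cytochrome c oxidase subunits of brown fat that are also expressed in striated muscle. In HFD rosi, replicate 1 was the lowest of its group for Ucp1, Dio2, Cidea, Cox7a1 and Cox8b.

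Thermogenic genes that did rise had separate groups. Elovl3, a very long chain fatty acid elongase induced by cold in brown fat, was at 45.2, 78.3, 35.9 and 92.4 CPM in HFD rosi and at 0.237, 1.63, 3.62 and 0 CPM in LFD control. Every HFD rosi library was about 10 times or more above the highest LFD control library, and the difference was 5.52 ± 0.65 (adjusted p = 0.000413). HFD control held 1.03 to 5.18 CPM, near LFD control. Otop1, a proton channel, stood at 73.5, 170, 158 and 197 CPM in HFD rosi and at 4.39, 12.2, 29.0 and 8.81 CPM in LFD control (3.45 ± 0.51, adjusted p = 0.00109). Plin5, a lipid droplet protein of oxidative tissue, rose by 2.16 ± 0.38, and Slc36a2, an amino acid transporter of brown and beige fat cells, by 1.55 ± 0.21. In the other direction, Ebf2, a transcription factor of brown fat identity, was at 29.6, 23.7, 22.8 and 29.6 CPM in HFD rosi and at 46.5, 54.9, 55.1 and 58.2 CPM in LFD control (-1.02 ± 0.12, adjusted p = 0.000383). HFD control was near HFD rosi for Ebf2, at 23.4 to 30.6 CPM. Adrb3, the beta 3 adrenergic receptor that starts the thermogenic response, fell as well (-1.17 ± 0.27). Of 9 tested beige markers, 3 rose (33.3%, against 17.9% of all genes) and 3 fell (33.3%, against 15.7%). Tbx15, 1 of the 3 that fell (-1.66 ± 0.32), followed the muscle share among LFD control libraries. With the muscle level in the model Tbx15 was 0.62 ± 0.59. Without LFD control replicates 1 and 4, 1 beige gene was called higher and 3 lower. The fit with the muscle level called 0 beige genes higher and 1 lower. The fatty acid transporter Slc27a1 rose (1.09 ± 0.21), and was 0.13 ± 0.44 with the muscle level in the model. Prdm16, a regulator of brown fat identity, was not called (-0.12 ± 0.21, adjusted p = 0.693).

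The mitochondrial respiratory chain was higher almost throughout. Of 36 tested nuclear genes for subunits of complex I, which takes electrons from NADH, 33 rose and 0 fell, and of 40 for complexes II to V, 37 rose and 0 fell. The medians were 0.69 and 0.83, against -0.02 for all genes. None of these genes met the rule for following the muscle share, but that rule takes only genes that increase with the share. It cannot show a gene that decreases with it. None of these genes was lower at an unadjusted p under 0.05, in DESeq2 or in limma voom. Cycs, the electron carrier cytochrome c, stood at 530, 788, 788 and 856 CPM in HFD rosi and at 207, 265, 268 and 164 CPM in LFD control. The groups did not overlap, and the difference was 1.71 ± 0.19 (adjusted p = 0.00036). Ndufb3, an accessory subunit of complex I, was at 136, 189, 180 and 181 CPM in HFD rosi and at 58.4, 82.9, 67.0 and 57.3 CPM in LFD control. Replicate 1 was the lowest of HFD rosi for both, and still above every LFD control library. Atp5o, a subunit of ATP synthase, rose by 1.23 ± 0.13 (adjusted p = 0.000291). Among LFD control libraries, the correlations with the muscle share were -0.588 for Cycs, -0.924 for Ndufb3 and 0.406 for Atp5o. HFD control against LFD control had 1 complex I gene higher and 2 lower, and 1 gene of complexes II to V each way; HFD rosi against HFD control had 34 and 38 higher and 0 lower.

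The pathways that feed the chain were higher as well. Of 22 genes for pyruvate entry and the citric acid cycle, 19 rose and 0 fell (median 0.90), and of 28 for fatty acid oxidation, 23 rose and 1 fell (median 1.02). Dlat, the acetyltransferase of pyruvate dehydrogenase, rose by 1.61 ± 0.19, and Sucla2, a subunit of succinyl-CoA ligase, by 1.49 ± 0.19. Acadm, the medium chain acyl-CoA dehydrogenase of mitochondrial oxidation, stood at 1086, 1798, 1664 and 1690 CPM in HFD rosi and at 423, 405, 532 and 398 CPM in LFD control. The lowest HFD rosi library, replicate 1, was about 2 times the highest LFD control library, and the difference was 1.82 ± 0.18 (adjusted p = 0.000227). Acaa1b, a thiolase of peroxisomal oxidation, was at 216, 156, 163 and 197 CPM in HFD rosi, at 44.8 to 58.7 CPM in HFD control and at 21.8, 37.6, 26.7 and 21.3 CPM in LFD control. Here HFD control lay between the other groups without overlapping either, and HFD rosi was 2.78 ± 0.19 above LFD control (adjusted p = 5.12e-05). Hadhb and Decr1, further enzymes of mitochondrial oxidation, rose by 1.48 ± 0.23 and 1.53 ± 0.18. Correlations with the muscle share among LFD control libraries were -0.925 for Acaa1b, -0.877 for Decr1, -0.59 for Hadhb and 0.0429 for Acadm. The gene that fell was Acad10, an acyl-CoA dehydrogenase family member (-0.53), chosen here after its value was seen, and called in only 1 of the 8 fits that leave out 1 library. Without LFD control replicates 1 and 4, the libraries with the most muscle RNA, 18 complex I, 28 complex II to V, 12 citric acid cycle and 19 fatty acid oxidation genes were still called higher. With the muscle level in the model, at most 1 gene of each of these lists was called, while the medians were 0.78, 0.82, 0.78 and 0.80.

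**Figure D3:**
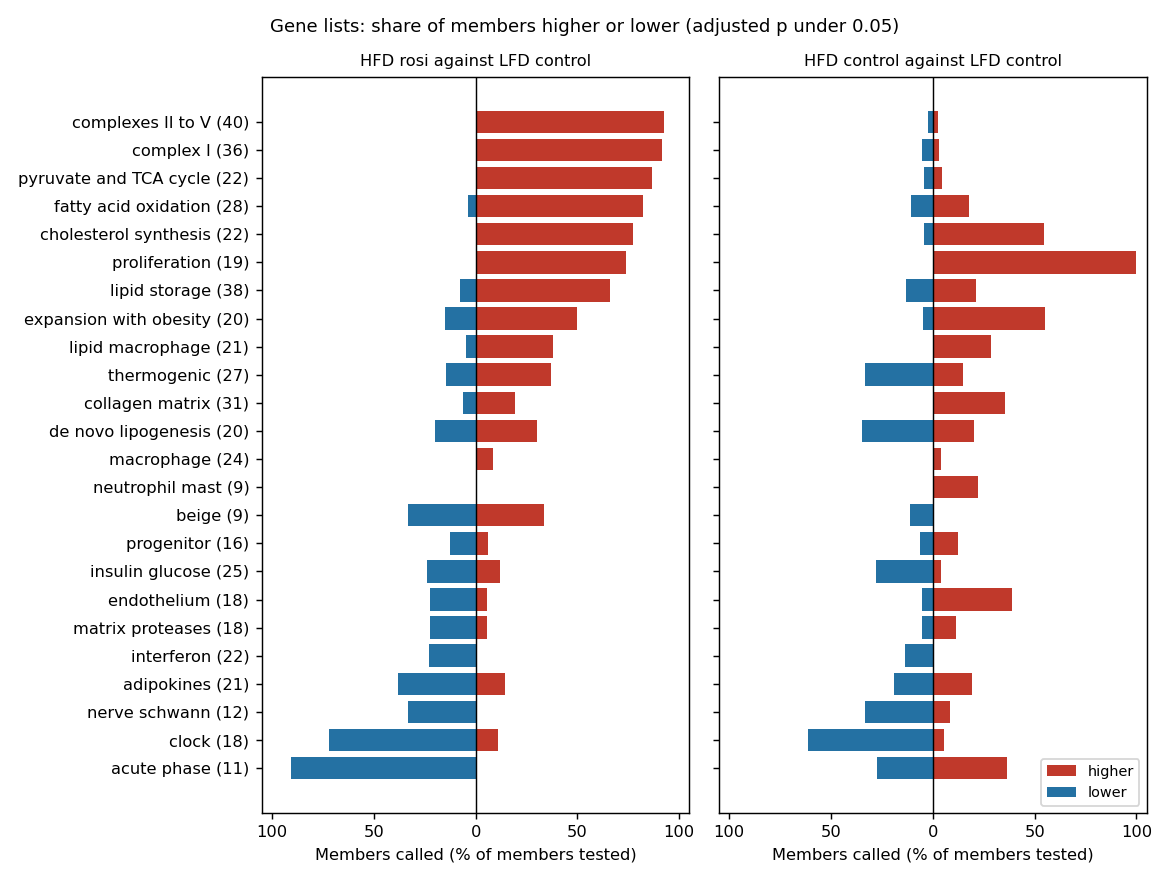
Members of each gene list called higher (red, right) or lower (blue, left), for HFD rosi against LFD control (left) and HFD control against LFD control (right). Both panels are in % of the members tested in HFD rosi against LFD control (number in brackets). Calls in the right panel come from the fit of 12 libraries, where the number tested can differ. The respiratory chain, citric acid cycle and fatty acid oxidation lists reach over 80% higher in the left panel and not in the right one. Acute phase and clock genes are mostly lower in the left panel, and both panels share the LFD control libraries.

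Genes that bring fatty acids into triglyceride stores and release them were mostly higher. Of 38 lipid storage and lipolysis genes, 25 rose and 3 fell, with a median of 0.77. Of the 36 on no muscle list, 24 rose and 2 fell. Without LFD control replicates 1 and 4, 17 were called higher and 4 lower. The fit with the muscle level called 0 higher and 1 lower, with a median of 0.30. Gpd1, which makes the glycerol phosphate backbone, is on a muscle list as well. It was at 3104, 4755, 4518 and 5181 CPM in HFD rosi and at 793, 1285, 1499 and 828 CPM in LFD control. Each HFD rosi library was more than 2 times the highest LFD control library (1.99 ± 0.25, adjusted p = 0.000577). Mgll, the monoglyceride lipase, stood at 2524, 3648, 3229 and 3561 CPM in HFD rosi and at 1046, 1096, 1222 and 982 CPM in LFD control, again apart (1.57 ± 0.15, adjusted p = 0.000227). The fatty acid binding protein Fabp5 rose by 2.15 ± 0.29, and was 0.68 ± 0.62 with the muscle level in the model. The melanocortin receptor accessory protein Mrap rose by 1.74 ± 0.21 and the acyltransferase Agpat2 by 1.69 ± 0.27. The lipid droplet proteins Plin2 and Cidec rose by 1.63 ± 0.22 and 1.16 ± 0.19. Pparg, the receptor that the drug binds, was not called (-0.03 ± 0.17, adjusted p = 0.920), with 137 to 244 CPM in HFD rosi and 164 to 228 in LFD control.

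Of the 3 falls, Pck1 was on no muscle list. Pck1, phosphoenolpyruvate carboxykinase, which supplies glycerol in fat cells, was at 1601, 1864, 2053 and 1289 CPM in HFD rosi, at 725 to 1546 CPM in HFD control and at 3090, 4954, 4006 and 3064 CPM in LFD control. All HFD rosi libraries lay below all LFD control libraries (-1.16 ± 0.21, adjusted p = 0.0031). Against HFD control, Pck1 was 0.59 higher in HFD rosi, with an adjusted p of 0.121. The other falls were Adrb3, given above, and the fatty acid binding protein Fabp3, which is on a muscle list.

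Of 20 fatty acid synthesis genes, 6 rose (30%, against 17.9% of all genes) and 4 fell (20%, near the 15.7% of all genes), with a median of 0.06. Those that rose included suppliers of cytosolic acetyl-CoA and NADPH: the citrate carrier Slc25a1 was at 469, 650, 455 and 773 CPM in HFD rosi and at 68.3, 200, 158 and 95.6 CPM in LFD control (2.16 ± 0.32, adjusted p = 0.00119), and the malic enzyme Me1 rose by 1.91 ± 0.34. Insig1, a regulator of sterol sensing, rose by 2.30 ± 0.36, and was 0.47 ± 0.79 with the muscle level in the model. Elovl6, which lengthens palmitate, was at 13.8, 20.4, 11.3 and 15.5 CPM in HFD rosi and at 16.7, 113, 91.4 and 32.7 CPM in LFD control. Its groups overlapped through LFD control replicate 1, and it fell (-2.05 ± 0.53, adjusted p = 0.0154). Thrsp, a protein of lipogenic tissue, fell without overlap (-1.46 ± 0.39), and LFD control replicate 2 was the highest library for both. Scd1, the stearoyl-CoA desaturase, was not called (-0.85 ± 0.34, adjusted p = 0.0819). The number of lipogenic genes called lower was 8 without LFD control replicates 1 and 4. The fit with the muscle level called 1 higher and 1 lower, with a median of -1.07.

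Cholesterol synthesis was higher along most of the pathway. Of 22 genes, 17 rose and 0 fell, with a median of 0.91. Without LFD control replicates 1 and 4, 13 were called higher. The fit with the muscle level called 1 higher and 0 lower, with a median of 0.64. Lss, the lanosterol synthase, stood at 81.3, 103, 85.9 and 108 CPM in HFD rosi, at 51.4 to 75.8 CPM in HFD control and at 19.8, 38.0, 30.8 and 26.3 CPM in LFD control. The 3 groups were apart, and HFD rosi was 1.72 ± 0.18 above LFD control (adjusted p = 0.000272). Nsdhl, of the demethylation steps, rose by 2.0 ± 0.23, and Fdps, the farnesyl diphosphate synthase, by 1.62 ± 0.17. Among LFD control libraries, Lss, Nsdhl and Fdps ran against the muscle share, with correlations of -0.982, -0.999 and -0.694. HFD control against LFD control had 12 genes of the list higher and 1 lower, and HFD rosi against HFD control had 4 higher. The promoters of 2 of the genes that rose are shown because genes of this pathway are known to carry a CCAAT box, the letters bound by the factor NF-Y, beside the sterol response element. The sequences are RefSeq's for build GRCm38.p6, from 250 bases before to 50 after the gene start, chr10:76531355-76531654 on the plus strand for Lss and chr5:4104648-4104947 on the minus strand for Cyp51, the lanosterol demethylase, which rose by 1.23 ± 0.15. Capitals mark CCAAT, or ATTGG where it lies on the other strand.
Lss: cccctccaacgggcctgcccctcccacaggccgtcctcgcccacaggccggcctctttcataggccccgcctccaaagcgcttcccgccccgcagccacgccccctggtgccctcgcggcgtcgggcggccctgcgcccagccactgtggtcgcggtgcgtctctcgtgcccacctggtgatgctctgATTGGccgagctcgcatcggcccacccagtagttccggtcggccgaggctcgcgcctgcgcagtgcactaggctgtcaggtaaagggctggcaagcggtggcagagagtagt
Cyp51: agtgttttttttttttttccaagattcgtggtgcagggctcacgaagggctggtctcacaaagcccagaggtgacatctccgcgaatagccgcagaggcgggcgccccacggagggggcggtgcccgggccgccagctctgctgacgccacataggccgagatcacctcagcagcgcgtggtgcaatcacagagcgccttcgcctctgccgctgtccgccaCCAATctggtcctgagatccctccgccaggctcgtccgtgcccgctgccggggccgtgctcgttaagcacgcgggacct
The letters CCAAT, on either strand, were in the windows of 14 of the 15 tested list members found in the promoter table (93.3%), and in 41.1% of the 27025 genes of the table. A match describes the letters only and is neither a binding site nor a cause.

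Among secreted products of fat cells, the largest change was in adipsin. Of 21 tested adipokine genes, 8 fell (38.1%, against 15.7% of all genes) and 3 rose (14.3%, near the 17.9% of all genes), with a median of -0.17. Cfd, which encodes adipsin (complement factor D), was at 343, 250, 319 and 212 CPM in HFD rosi, at 554 to 1773 CPM in HFD control and at 4077, 6433, 5593 and 4383 CPM in LFD control. All HFD rosi libraries were below all HFD control libraries, which were below all LFD control libraries. The log2 fold change of Cfd was -4.19 ± 0.24 against LFD control (adjusted p = 2.48e-05) and -1.76 against HFD control (adjusted p = 0.00363). Agt, angiotensinogen, was at 7.44, 0.779, 0.940 and 1.36 CPM in HFD rosi and at 20.8, 72.6, 25.3 and 19.7 CPM in LFD control (-3.73 ± 0.69, adjusted p = 0.00321). Apoe (-1.42 ± 0.15) and Rbp4, the retinol carrier (-0.96 ± 0.22), fell as well. Lep, leptin, rose: it was at 4155, 5817, 4992 and 4605 CPM in HFD rosi and at 2779, 1056, 2412 and 2680 CPM in LFD control (1.13 ± 0.28, adjusted p = 0.0128). HFD control, at 4932 to 6765 CPM, overlapped HFD rosi for leptin. Pltp, the phospholipid transfer protein, rose by 1.35 ± 0.12, and Adipoq was not called (0.12 ± 0.16).

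Of 20 genes that follow fat expansion, 10 rose (50%), 3 fell (15%, near the 15.7% of all genes) and 7 were not called, with a median of 0.53. The 3 that fell were Tnfrsf19, a receptor of the tumour necrosis factor family (-4.65 ± 0.68), the acute phase protein gene Orm1 (-1.02 ± 0.27) and the imprinted gene Nnat (-0.85 ± 0.23). Tnfrsf19 was highest in LFD control replicate 1, the library with the most muscle RNA, and was -0.78 with the muscle level in the model. Mest, an imprinted gene known to track fat gain in mice, was at 693, 993, 936 and 838 CPM in HFD rosi, at 543 to 820 CPM in HFD control and at 248, 138, 264 and 290 CPM in LFD control. HFD rosi and HFD control overlapped, and both were above every LFD control library. Mest rose by 1.87 ± 0.22 (adjusted p = 0.000413), and Bmp3, a growth factor of the bone morphogenetic protein family, by 1.62 ± 0.17. Cfd, Apoe, Agt, Lep and Mest kept their calls in all 8 fits that leave out 1 library.

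**Figure D4:**
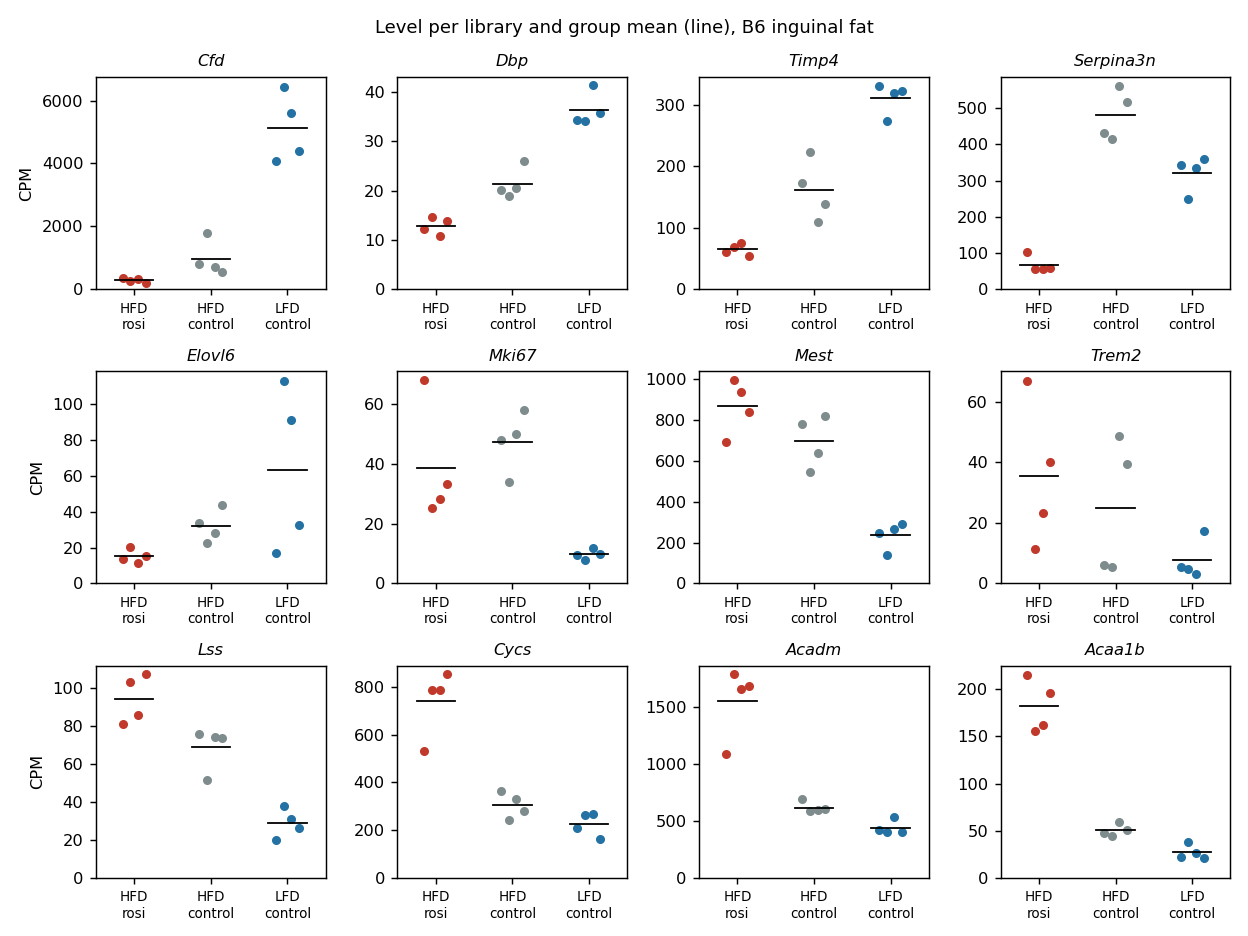
Level (CPM, linear axes from 0) of 12 genes in each library of HFD rosi (red), HFD control (grey) and LFD control (blue); points are libraries and lines are group means. Cfd, Dbp and Timp4 are lower in HFD rosi and in HFD control than in LFD control, Serpina3n is lower in HFD rosi than in both other groups, and Cycs, Acadm and Acaa1b are higher in HFD rosi than in both other groups.

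Acute phase and complement genes were lower in treated fat. Of 11 tested, 10 fell and 0 rose, with a median of -1.35. The fit with the muscle level called 4 lower and 0 higher, with a median of -2.17. Serpina3n, a serine protease inhibitor, was at 103, 55.5, 55.8 and 58.1 CPM in HFD rosi, at 416 to 560 CPM in HFD control and at 344, 248, 335 and 361 CPM in LFD control. Replicate 1 was the highest of HFD rosi and still below every library of the other groups. Its log2 fold change was -2.25 ± 0.22 against LFD control (adjusted p = 0.000227) and -2.82 against HFD control (adjusted p = 1.02e-05). Hp, haptoglobin, was at 857, 487, 487 and 443 CPM in HFD rosi, at 2502 to 4977 CPM in HFD control and at 1578, 592, 1722 and 1894 CPM in LFD control. HFD control was the highest group for Hp, and HFD rosi and LFD control overlapped through HFD rosi replicate 1 and LFD control replicate 2 (-1.35 ± 0.35, adjusted p = 0.0151). The complement genes C4b (-1.96 ± 0.24) and C3 (-1.69 ± 0.31) fell without overlap. HFD control against LFD control had 4 genes of the list higher and 3 lower, and HFD rosi against HFD control had 8 lower and 0 higher.

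Macrophage genes were less clear. Of 24 general macrophage markers, 2 rose (8.33%, below the 17.9% of all genes) and 0 fell, with a median of 0.15. The 2, Itgax and Cd84, were both lost without HFD rosi replicate 1, HFD rosi replicate 4 or any 1 of LFD control replicates 1 to 3. Of 21 genes of lipid-laden macrophages, 8 rose (38.1%) and 1 fell (4.76%), with a median of 1.0. The 8 became 4 or 5 without HFD rosi replicate 4 or LFD control replicate 1 or 3. Some of these, such as Fabp5, Plin2 and Lpl, are also genes of fat cells. Trem2, the receptor that marks lipid-laden macrophages, was at 66.8, 11.5, 23.1 and 40.1 CPM in HFD rosi, at 5.30 to 48.7 CPM in HFD control and at 5.58, 4.68, 3.16 and 17.2 CPM in LFD control. Replicate 1 was the highest of HFD rosi and replicate 4 of LFD control, and the groups overlapped (2.18 ± 0.60, adjusted p = 0.0203, called in 5 of the 8 fits that leave out 1 library). Itgax, the integrin CD11c, and Atp6v0d2, a proton pump subunit of lipid-laden macrophages, had the same 2 libraries highest and differed by 1.87 ± 0.59 and 2.46 ± 0.81, but kept their calls in only 3 and 2 of the 8 fits that leave out 1 library. Lgals3, galectin 3, rose by 1.55 ± 0.33 without overlap. Adgre1, the F4/80 marker of macrophages, was not called (0.84 ± 0.39, adjusted p = 0.118). The summed level of the general list ran from 1184 to 4020 CPM in HFD rosi, from 1725 to 3400 in HFD control and from 1581 to 2606 in LFD control, and its part in the results on immune genes was not tested. In whole tissue, a lower level of a gene can come from fewer cells of a type or from less RNA per cell, and the counts do not tell these apart.

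Other immune lists had few calls, or calls that depended on single libraries. Of 22 interferon response genes, 5 fell (22.7%, against 15.7% of all genes) and 0 rose, with a median of -0.52 against -0.02 for all genes. The 5 became 13 without HFD rosi replicate 1 and 1 to 3 without any 1 of HFD rosi replicates 2 to 4 or LFD control replicates 2 and 3. Irf7, a regulator of that response, was at 31.9, 15.6, 18.1 and 20.3 CPM in HFD rosi and at 29.6, 80.7, 38.8 and 29.8 CPM in LFD control. Its groups overlapped and LFD control replicate 2 was the highest (-1.05 ± 0.35, adjusted p = 0.0431). Of 9 neutrophil and mast cell genes, 0 were called by edgeR, DESeq2 or voom, and 0 had an unadjusted p under 0.05. Of 20 lymphocyte genes, which would mark a lymph node in the sample, only 2 passed the filter on low counts. Their summed level was 14.99 to 140 CPM in HFD rosi and 12.4 to 31.1 in LFD control, and Il7r, a receptor of lymphocytes, was the 1 called (1.84 ± 0.59), in 3 of the 8 fits that leave out 1 library.

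Cell division genes were higher. Of 19 proliferation genes tested, 14 rose and 0 fell, with a median of 1.49. Mki67, the Ki-67 antigen, was at 67.9, 25.1, 28.2 and 33.3 CPM in HFD rosi, at 33.9 to 57.9 CPM in HFD control and at 9.50, 7.72, 11.9 and 9.75 CPM in LFD control. Replicate 1 was the highest of HFD rosi, every HFD rosi library was more than 2 times every LFD control library, and Mki67 rose by 1.97 ± 0.31 (adjusted p = 0.00157). Cdk1, the mitotic kinase, was at 16.0, 9.73, 9.97 and 7.14 CPM in HFD rosi and at 1.66, 1.83, 1.87 and 2.35 CPM in LFD control (2.44 ± 0.29, adjusted p = 0.000403). Top2a, a DNA topoisomerase, and Ccnb1, cyclin B1, rose by 1.88 ± 0.35 and 2.84 ± 0.63. In the fit of 12 libraries, 19 genes of the list were called higher and 0 lower in HFD control than in LFD control. The median of HFD rosi over HFD control was -0.12. The 14 became 5 without LFD control replicates 1 and 4, and 10 to 17 when any 1 library was left out. They became 0 with the muscle level in the model, where the median was 1.07.

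The Cdk1 promoter is shown because genes of mitosis are known to carry the cell cycle homology region, TTTGAA, through which they are held off outside division. It is RefSeq's for GRCm38.p6, chr10:69352863-69353162 on the minus strand, and capitals mark TTTGAA.
Cdk1: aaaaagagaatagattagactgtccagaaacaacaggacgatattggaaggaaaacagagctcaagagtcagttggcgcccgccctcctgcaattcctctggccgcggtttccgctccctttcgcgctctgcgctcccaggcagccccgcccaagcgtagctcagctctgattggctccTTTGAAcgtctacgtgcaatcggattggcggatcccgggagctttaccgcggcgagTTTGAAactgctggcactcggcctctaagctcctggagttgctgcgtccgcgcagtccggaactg
TTTGAA, on either strand, was in the windows of 9 of the 17 list members found in the table (52.9%), and in 20.2% of all genes of the table.

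Matrix genes moved little as a group. Of 31 collagen and matrix genes, 6 rose (19.4%, near the 17.9% of all genes) and 2 fell (6.45%, against 15.7%), with a median of 0.07. Postn, periostin, was at 550, 402, 359 and 377 CPM in HFD rosi and at 121, 165, 119 and 165 CPM in LFD control (1.56 ± 0.18, adjusted p = 0.000349), with HFD control near HFD rosi at 279 to 525 CPM. Col12a1 rose by 1.55 ± 0.38, and Dcn, decorin, fell (-0.93 ± 0.28), a call kept in 3 of the 8 fits that leave out 1 library. Of 18 matrix proteases and their inhibitors, 1 rose (5.56%) and 4 fell (22.2%, against 15.7% of all genes). Timp4, an inhibitor of metalloproteinases that is abundant in fat, was at 60.4, 68.3, 75.6 and 54.5 CPM in HFD rosi, at 110 to 222 CPM in HFD control and at 331, 274, 318 and 322 CPM in LFD control. The 3 groups were apart, and Timp4 fell (-2.27 ± 0.12, adjusted p = 2.21e-05). Mmp9, a gelatinase (-3.04 ± 0.50), and Timp3, another metalloproteinase inhibitor (-0.74 ± 0.13), fell as well.

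Most circadian clock genes were lower. Of 18 clock genes, 13 fell and 2 rose, with a median of -0.94. Without LFD control replicates 1 and 4, 11 were called lower and 2 higher. The fit with the muscle level called 1 lower and 1 higher, with a median of -0.47. Clock genes vary over the day, and no time of tissue collection entered the comparison. The 2 that rose are the activators of the loop: Clock was at 206, 265, 242 and 273 CPM in HFD rosi and at 130, 113, 143 and 146 CPM in LFD control (0.88 ± 0.11, adjusted p = 0.00066), and its partner Arntl rose by 0.92 ± 0.28, a call kept in 2 of the 8 fits that leave out 1 library. The genes that fell include repressors and outputs that this pair drives. Dbp, an output factor, was at 12.2, 14.6, 10.7 and 13.8 CPM in HFD rosi, at 18.9 to 26.0 CPM in HFD control and at 34.4, 34.1, 41.5 and 35.7 CPM in LFD control. The 3 groups were apart, and Dbp fell (-1.51 ± 0.12 against LFD control, adjusted p = 9.44e-05). So did Ciart, a repressor (-2.09 ± 0.27), Tef, an output factor (-0.98 ± 0.13), and the repressors Nr1d1 (-0.99 ± 0.19), Per3 (-0.90 ± 0.15) and Per1 (-0.80 ± 0.13). HFD control against LFD control had 11 clock genes lower and 1 higher, and HFD rosi against HFD control had 4 lower and 0 higher.

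The promoters of Ciart and Per1 are shown because the Clock and Arntl proteins are known to bind the E-box CACGTG. Both are RefSeq's for GRCm38.p6, chr3:95882179-95882478 on the minus strand for Ciart and chr11:69098699-69098998 on the plus strand for Per1, with CACGTG in capitals.
Ciart: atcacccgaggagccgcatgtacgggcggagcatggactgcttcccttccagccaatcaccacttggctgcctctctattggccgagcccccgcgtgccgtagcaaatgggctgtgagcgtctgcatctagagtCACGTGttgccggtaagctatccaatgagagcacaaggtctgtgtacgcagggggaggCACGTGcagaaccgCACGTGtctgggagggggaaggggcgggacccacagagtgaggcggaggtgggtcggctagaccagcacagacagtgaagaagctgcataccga
Per1: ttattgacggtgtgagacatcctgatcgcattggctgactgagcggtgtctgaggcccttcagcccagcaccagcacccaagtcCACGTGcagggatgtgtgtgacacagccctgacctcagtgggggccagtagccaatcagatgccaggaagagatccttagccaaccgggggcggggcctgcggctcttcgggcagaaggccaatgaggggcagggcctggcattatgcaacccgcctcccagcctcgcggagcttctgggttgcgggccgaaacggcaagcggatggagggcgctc
CACGTG, which reads the same on both strands, was in the windows of 5 of 15 clock genes found in the table (33.3%), namely Bhlhe41, Ciart, Cry1, Per1 and Tef, and in 8.09% of all genes of the table. Of these 5, the repressor Cry1 was not called (0.07).

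The largest rises lay mostly outside the lists. Sptlc3, a subunit of serine palmitoyltransferase, which starts sphingolipid synthesis, was at 48.8, 59.4, 43.4 and 67.5 CPM in HFD rosi, at 0.372 to 0.737 CPM in HFD control and at 0, 0.203, 0 and 0.117 CPM in LFD control. LFD control held 2 counts of Sptlc3 in all 4 libraries, against 1401 in HFD rosi, a ratio of 859 after scaling to library size, with a 95% counting interval of 237 to 7100. Cacng5, an auxiliary subunit related to calcium channels, had 371 counts in HFD rosi and 1 in LFD control, a ratio of 455 (81.2 to 18020), and Gpr50, an orphan receptor related to melatonin receptors, had 223 and 3, a ratio of 91.2 (30.8 to 445). These intervals cover counting error only. HFD control was near HFD rosi for Gpr50, at 0.589 to 13.5 CPM, and between the groups for Cacng5, at 1.18 to 1.86 CPM.

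Other large rises were well covered. Mbnl3, an RNA-binding regulator of splicing, stood at 111, 178, 186 and 177 CPM in HFD rosi, at 15.4 to 25.9 CPM in HFD control and at 5.22, 6.50, 6.55 and 9.40 CPM in LFD control. The 3 groups were apart, HFD rosi replicate 1 was the lowest of its group, and Mbnl3 rose by 4.54 ± 0.22 (adjusted p = 1.28e-05). Acoxl, related to the peroxisomal acyl-CoA oxidases, rose by 4.72 ± 0.27, and the potassium channel Kcnj16 by 4.15 ± 0.35. Chrna2, a nicotinic acetylcholine receptor subunit known from beige fat in mice, was at 27.2, 36.2, 39.9 and 36.2 CPM in HFD rosi, at 2.06 to 5.20 CPM in HFD control and at 3.92, 2.24, 2.57 and 1.76 CPM in LFD control. HFD control overlapped LFD control for Chrna2, and HFD rosi was 3.70 ± 0.22 above LFD control (adjusted p = 3.4e-05). Ubd, a ubiquitin-like modifier, was at 158, 68.1, 137 and 187 CPM in HFD rosi, at 59.8 to 217 CPM in HFD control and at 10.7, 11.4, 5.50 and 10.9 CPM in LFD control. HFD rosi and HFD control overlapped for Ubd, which rose by 3.84 ± 0.33 against LFD control (adjusted p = 0.000135). With the muscle level in the model, Sptlc3, Cacng5, Acoxl, Mbnl3, Kcnj16 and Chrna2 were called. The other 4 lost their calls with values near those above and larger errors: Elovl3 was 6.6 ± 1.64, Gpr50 5.38 ± 2.71, Ubd 4.47 ± 1.19 and Otop1 3.38 ± 1.36.

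The largest falls that did not meet the rule for following the muscle share were chosen after their values were seen. Besides Cfd and Agt, they included Cyp2f2, a cytochrome P450, at 1.45, 0.779, 0.188 and 0.227 CPM in HFD rosi and at 8.31, 12.8, 18.0 and 18.9 CPM in LFD control (-4.53 ± 0.49, adjusted p = 0.000294). Trp63, the p63 factor of stratified epithelium, was at 0.907, 0.389, 0.188 and 0.227 CPM in HFD rosi, at 2.21 to 5.03 CPM in HFD control and at 8.67, 5.08, 5.03 and 4.82 CPM in LFD control. HFD control was near LFD control for Trp63, which fell in HFD rosi (-3.81 ± 0.43, adjusted p = 0.000342). The kinase Ripk4, which acts in epithelial differentiation, fell too (-3.66 ± 0.38). Of 20 epithelial markers, 3 passed the filter on low counts, and 2 of these fell without overlap: Trp63 and Prom1, prominin 1 (-1.07 ± 0.36, a call kept in 2 of the 8 fits that leave out 1 library). Both were lower against HFD control as well, and the keratin Krt10 was not called (-0.13 ± 0.32). The summed level of all 20 was 4.32 to 18.3 CPM in HFD rosi and 11.3 to 15.1 CPM in LFD control. The tetraspanin Tspan8 (-4.80 ± 0.70) and the receptor Tnfrsf19 (-4.65 ± 0.68) fell. Both were highest in LFD control replicate 1, the library with the most muscle RNA, at 23.9 and 11.3 CPM, and with the muscle level in the model their values were -0.92 and -0.78. Tspan8 and Tnfrsf19 narrowly missed the rule for following the muscle share, with slopes of 0.496 and 0.551 and correlations of 0.954 and 0.887. The kinases Alpk2 (-6.44 ± 0.96) and Ip6k3 (-4.07 ± 0.77) are known from striated muscle and were likewise highest in LFD control replicate 1. Their correlations with the muscle share were 0.762 and 0.864. Cfd and Agt kept their calls in that model. Cyp2f2 (-5.93 ± 1.73), Ripk4 (-4.59 ± 1.27) and Trp63 (-2.90 ± 1.06) did not, with differences that stayed large and errors that grew.

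Genes of insulin action and of other cell types had fewer calls in number. Of 25 insulin and glucose genes, 3 rose (12%, against 17.9% of all genes) and 6 fell (24%, against 15.7%), with a median of -0.20. Of the 24 on no muscle list, 3 rose and 5 fell. Irs1, the insulin receptor substrate, was at 91.1, 96.6, 104 and 80.3 CPM in HFD rosi, at 71.9 to 115 CPM in HFD control and at 162, 209, 189 and 159 CPM in LFD control. HFD rosi and HFD control overlapped below LFD control (-0.95 ± 0.12, adjusted p = 0.000569), and Pik3r1, a regulatory subunit of PI3 kinase, fell with overlap (-0.66 ± 0.22), a call kept in 2 of the 8 fits that leave out 1 library. Of 18 endothelial genes, 1 rose (5.56%) and 4 fell (22.2%, against 15.7% of all genes), with a median of -0.16. The receptors Tek (-0.69 ± 0.11) and Flt1 (-0.54 ± 0.12) were among those that fell. Of 12 nerve and Schwann cell genes, 4 fell (33.3%, against 15.7% of all genes) and 0 rose, with a median of -0.795. Scn7a, a sodium channel of Schwann cells, was at 260, 269, 279 and 236 CPM in HFD rosi, at 421 to 530 CPM in HFD control and at 503, 647, 538 and 531 CPM in LFD control. HFD control overlapped LFD control for Scn7a, which fell (-1.09 ± 0.11, adjusted p = 0.000259), as did Cdh19, a cadherin of Schwann cells (-1.34 ± 0.30). The 4 became 11 without HFD rosi replicate 1 and 2 without any 1 of HFD rosi replicates 2 to 4 or LFD control replicates 1, 2 and 4. Of 16 fat progenitor genes, 1 rose (6.25%) and 2 fell (12.5%), both below the shares of all genes. Only 1 of the red cell genes passed the filter, and it was not called.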

How the data were processed

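Total RNA of B6 iWAT was extracted with Trizol and RNeasy columns, depleted with Ribo-Zero gold and made into libraries with TruSeq kits, per the labels' protocols. The deposited files hold raw counts per gene symbol, 24328 genes and 5 tally rows in each. Reads were aligned with TopHat2 version 2.1.0, counted with HTSeq and placed on mm9, per the submitters' processing notes. The annotation, strand setting and read filters were not given in the sources used here, so antisense and paralogous genes can share reads. Tally rows were left out of library sizes: reads in no feature were 29.3 to 40.6% and ambiguous reads 0.849 to 0.980%.

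Groups followed the titles. The 8 libraries were tested with edgeR 4.0.16 in R 4.3.3 (quasi-likelihood F test, TMM, filterByExpr with a minimum count of 10 and a minimum total of 15, Benjamini-Hochberg, threshold 0.05, 2-sided). HFD control entered a fit of 12 libraries. CPM used TMM sizes over the 12, and SE is the log2 fold change over the root of F. Counting intervals are exact at 95%. List counts carry no set test. Alternatives were DESeq2 1.42.0, limma 3.58.1 (voom with quality weights), RLE scaling, no filter, 3 groups in 1 fit, a replicate block, a muscle term, muscle genes removed, and each library left out. The script was tested on simulated data.

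Comparison, lists and members were chosen with earlier results of these data known. Named genes were Ucp1, up to 4 called members per list by adjusted p with further members by role, and the 10 largest changes each way among called genes with a mean of at least 5 CPM in the higher group, no overlap, and the same sign in every fit that leaves out 1 library and with the muscle term. A second list of 10 falls that do not meet the rule for following the muscle share, and the omission of LFD control replicates 1 and 4, were added after seeing the data. Promoter windows come from RefSeq's table for GRCm38.p6, another build than mm9, matched by symbol, and 15 of 18 clock, 15 of 22 cholesterol and 17 of 19 proliferation genes were found. Some genes that the naming rule picks are not reported here.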

Additional observations from a re-analysis of the deposited data

Results flagged for a closer look

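In 236 groups of 4 libraries (a named gene, or the muscle share, in HFD rosi or LFD control), 24 held a library far from the other 3 by Dixon's criterion on the log scale, where chance flags about 1 in 20 groups. The flagged genes share libraries and are not independent. For Cacng5 in LFD control, and for Ano5, Cnksr1, Myo18b and Hhatl in HFD rosi, the other 3 libraries were all at 0. Any value above 0 then meets the criterion, so the rate of 1 in 20 does not hold for them.

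HFD rosi replicate 1 was flagged for 9 genes. It was the lowest for Mbnl3 (111 CPM, the others 177 to 186), Cox8b (26.7, the others 69.9 to 82.9), Ndufb3 (136, the others 180 to 189), Acadm (1086, the others 1664 to 1798), Hadhb (1058, the others 1460 to 1536), Fabp5 (484, the others 590 to 603) and Adipoq (3174, the others 3685 to 3793), which are genes of fat cells and their mitochondria apart from Mbnl3. It was the highest for Serpina3n (103, the others 55.5 to 58.1) and Hp (857, the others 443 to 487). The same library had the highest level of the macrophage genes Trem2, Itgax and Adgre1 and of Mki67, and the part of these cells in the flags was not tested.

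HFD rosi replicate 4 had the highest muscle share, 0.136% against 0.0310 to 0.0363% in the others. It was flagged as the highest for the muscle genes Ano5 (1.25 CPM), Cnksr1 (0.113, a single count), Myo18b (1.25), Hhatl (0.680) and Klhl41 (2.72). HFD rosi replicate 2 was the highest for Slc27a1, at 1162 CPM against 848 to 883.

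LFD control replicate 3 was the highest for Ucp1 (156 CPM, the others 0.237 to 0.813) and Dio2 (27.4, the others 0.352 to 0.610), and the lowest for Ubd (5.50, the others 10.7 to 11.4). LFD control replicate 2, with the smallest muscle share of its group, was the lowest for Lep (1056, the others 2412 to 2779), Hp (592, the others 1578 to 1894) and Ccnb1 (0.203, the others 0.702 to 0.712). LFD control replicate 1, with the largest muscle share, was the highest for Trp63 (8.67, the others 4.82 to 5.08) and for Cacng5 (0.119, a single count).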

How the results depend on the processing

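The 4381 genes called became 4234 to 5186 under RLE scaling, no filter, DESeq2, voom, 3 groups in 1 fit, or muscle genes removed, and 3207 (without HFD rosi replicate 4) to 4782 (without HFD rosi replicate 1) when 1 library was left out. They became 158 with the muscle term and 2099 without LFD control replicates 1 and 4, a fit with fewer libraries. Of distinct members of lists other than muscle, 291 were called, 244 to 317 with 1 library left out and 26 with the muscle term. The replicate block gave 3876 calls: deviations of HFD rosi and LFD control libraries with the same number correlated at -0.07, 0.06, 0.23 and 0.05, and 1 of 4 correlated best with its own number, so the numbers do not pair the libraries. The muscle difference was -6.85 to -5.74 with 1 library left out, -1.55 over both muscle lists and -7.80 over 5 muscle genes. Ucp1 ran from -1.46 to 5.46 with 1 library left out, the highest without LFD control replicate 3, and was 2.25 with voom and 1.66 with the replicate block. Other signs turned only for genes not called, or with the muscle term. With voom, Cidea was 0.30, Dio2 0.41 and Cox8b 0.0021, and with the replicate block Cidea was 0.27 and Dio2 0.20. With the muscle term, Cox7a1 was 2.51, Cox8b 0.96, Acta1 0.50, Tbx15 0.62, Cd55 0.20, Prdm16 0.066 and Adipoq -0.55, and Adipoq was -0.040 without LFD control replicates 1 and 4. With 1 library left out, Cidea ran from -0.84 to 0.85, Cox7a1 from -0.45 to 0.051, Cox8b from -0.24 to 0.28, Pparg from -0.19 to 0.085 and Cry1 from -0.10 to 0.32. Over all alternatives, 2515 values of named genes kept their direction and call, 264 lost the call and 6 gained one. Calls of smaller lists moved too: with 1 library left out, lower calls ran from 1 to 3 for beige genes, 3 to 7 for insulin action, 2 to 6 for fatty acid synthesis, 0 to 6 for progenitors, 4 to 8 for matrix proteases and 0 to 4 for collagen and matrix genes, and 2 endothelial genes were called lower without LFD control replicates 1 and 4. The causes were not tested.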

Other observations

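Some genes on a muscle list, or that followed the muscle share, rose in HFD rosi, although LFD control held more muscle RNA. On the muscle lists, 4 genes rose. None of the 4 met the rule for following the muscle share within LFD control. The correlations were 0.50 for Pdk4, 0.078 for Esrrg, -0.71 for Gpd1 and 0.81 for Tnfrsf12a. Pdk4, the kinase that switches off pyruvate dehydrogenase, was at 467, 630, 526 and 587 CPM in HFD rosi, at 154 to 256 CPM in HFD control and at 325, 227, 318 and 209 CPM in LFD control. HFD rosi was above both other groups, and Pdk4 rose by 1.03 ± 0.17 (adjusted p = 0.0017). Esrrg, a nuclear receptor of oxidative tissue, rose by 1.61 ± 0.36, Gpd1 is described above, and Tnfrsf12a, a receptor of tissue injury, rose by 0.85 ± 0.27 with overlapping groups, a call kept in 2 of the 8 fits that leave out 1 library.

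Among genes on no muscle list that followed the muscle share within LFD control, Slc5a7, the choline transporter, was at 155, 143, 112 and 167 CPM in HFD rosi, at 101 to 123 CPM in HFD control and at 47.0, 8.94, 29.2 and 36.7 CPM in LFD control. HFD control was also above all LFD control libraries, and Slc5a7 rose by 2.21 ± 0.36 (adjusted p = 0.0018). Oxtr, the oxytocin receptor, was at 94.4, 112, 92.0 and 117 CPM in HFD rosi, at 219 to 302 CPM in HFD control and at 67.7, 19.7, 27.9 and 44.1 CPM in LFD control. HFD control was the highest group for Oxtr, and HFD rosi was 1.36 ± 0.31 above LFD control (adjusted p = 0.00821). These genes were chosen after their values were seen. For Slc5a7 and Oxtr, a correlation over 4 libraries does not show that their RNA comes from muscle.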
